A study of Mus musculus with 18 samples.

Results

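The replication-dependent histone genes were examined in mouse N2A (Neuro2A) cells, a neuroblastoma line that grows as a dividing culture. A locus was taken as a member when at least 1 of its gene symbols began with Hist1h, Hist2h, Hist3h or Hist4. This rule found 66 of the 52179 loci that carried a symbol, out of 168136 loci in all. The 66 loci held 70 histone symbols, with 6 for the linker histone H1, 20 for H2A, 19 for H2B, 12 for H3 and 13 for H4. The annotation gives 3 of the 70, Hist1h2al, Hist1h2aj and Hist3h2bb-ps, as pseudogenes. Of these loci, 54 lay on chromosome 13, where the Hist1 cluster is, 8 on chromosome 3 (Hist2), 3 on chromosome 11 (Hist3) and 1 on chromosome 6 (Hist4h4). In 8 loci several symbols were joined, and 3 of those also carried a symbol outside the family (Trim17, Gm42743 and Gm11274). Of the 66, 55 passed a mean normalized count of 10 over the 18 samples and were tested.

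The samples formed 6 groups of 3, all from N2A cells of the genotype labelled WT. Cells were left untransfected (control), or were transfected with 25 nM of a biotinylated scrambled mimic (Scr) or of a biotinylated miR-92b mimic (labelled miR92b overexpression), and RNA was taken from nuclear or whole cell lysates by a streptavidin pulldown. Every library was then made from RNA held by oligo-dT beads with a kit that keeps the strand. Each group is 1 cell line, and nothing in the labels says that the 3 samples of a group were separate cultures, so p-values measure the spread between these samples, which may be technical. In such bulk samples, fewer cells with a transcript and less of it per cell cannot be told apart.

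Replication-dependent histone mRNAs are made mainly in S phase, when new DNA has to be packed. Unlike other mRNAs they normally end in a stem-loop that is bound by the protein Slbp, and carry no poly(A) tail. Some of these genes also give longer polyadenylated transcripts when the cleavage after the stem-loop is passed over. Because the libraries were selected for poly(A), all values below are of histone RNA that oligo-dT beads retained, by a tail or by an internal run of A, and not of the whole histone mRNA pool.

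To show what part of the transcript carries that signal, the annotated transcripts of GENCODE M21 (build GRCm38) were searched on the sense strand for the stem-loop, written as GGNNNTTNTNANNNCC with the first 6 and last 6 bases complementary. All 70 genes had an annotated transcript, and 46 had such a stem-loop after the stop codon, at a median of 31 nt past it (range 21 to 58). Among all 41224 protein-coding transcripts of 300 to 3000 nt, 62 (0.150%) held it, and 13 (0.0315%) held it on the other strand. The 62 include most of the 48 transcripts of the histone genes that had a stem-loop, so 0.150% is not a rate in other genes. The 46 genes used 8 forms of the stem-loop. Each form is shown in 1 gene, so that the classes can be compared, with the form found in 26 of the genes first, the stem-loop in capitals and up to 5 flanking bases in lower case, all in the 3′ UTR of the annotated transcript.
Hist3h2ba, chr11:58949344-58949369, plus strand: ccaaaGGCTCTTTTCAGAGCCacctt
Hist1h2bb, chr13:23747198-23747223, plus strand: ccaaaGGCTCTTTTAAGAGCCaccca
Hist1h3g, chr13:23535884-23535909, plus strand: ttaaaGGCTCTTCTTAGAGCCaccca
Hist2h2ac, chr3:96220413-96220438, minus strand: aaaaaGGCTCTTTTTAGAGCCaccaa
Hist4h4, chr6:136803993-136804018, minus strand: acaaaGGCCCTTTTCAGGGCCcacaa
Hist1h4j, chr13:21735432-21735457, plus strand: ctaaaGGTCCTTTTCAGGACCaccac
Hist2h4, chr3:96262934-96262959, minus strand: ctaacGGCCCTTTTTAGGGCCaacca
Hist1h4a, chr13:23760795-23760820, minus strand: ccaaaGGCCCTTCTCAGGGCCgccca
The stem of the H4 genes differed from that of the other classes within the first 6 bases, and 2 genes, Hist1h4j and Hist1h4b, carried the GGTCC form. The mature miR-92b-3p (RefSeq, GRCm38.p6, chr3:89227126-89227147, minus strand) was searched for in the same way, and its seed (bases 2 to 8) is shown in capitals.
miR-92b-3p: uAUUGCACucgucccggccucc
No transcript of the 70 genes held the DNA match to that seed, GTGCAAT, against 11.9% of 21877 protein-coding genes. For genes whose longest transcript was at most 1000 nt, the counts were 0 of 52 histone genes and 2.88% of 2400 protein-coding genes.

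The 18 libraries held 3752991 to 22920037 reads on loci with a symbol. The histone loci took 0.0934% to 0.187% of them in the 9 nuclear samples and 0.168% to 0.534% in the 9 whole cell samples. The highest share was that of the third whole cell miR-92b sample, at 0.534% (95% Wilson interval 0.529 to 0.538%, which covers counting error only), and no other sample was above 0.275% (0.271 to 0.279%). That sample was the highest of all 18 in 47 of the 55 tested histone loci, and in 3110 of all 15579 tested loci. It stood at a median of 2.80 times the median of the other 8 whole cell samples over the histone loci, against 0.91 times over all loci. At a common depth of 3752991 reads it also had the fewest loci with a read, 13823, where the others had 14729 to 20720. Counts of calls are given with and without it for nuclear against whole cell samples and for the comparisons that use it. Medians over all tested histone loci are so given only for comparisons that use it. The other comparisons between treatments are given only with it, as are the summaries below by histone class, length, annotated end and other gene list. The nuclear samples with the largest histone shares, the second Scr (0.187%), the third control (0.170%) and the third Scr (0.149%) sample, were the 3 nuclear samples with the fewest loci at that depth (14729, 15732 and 14958). The part of this in the results was not tested.

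**Figure D1:**
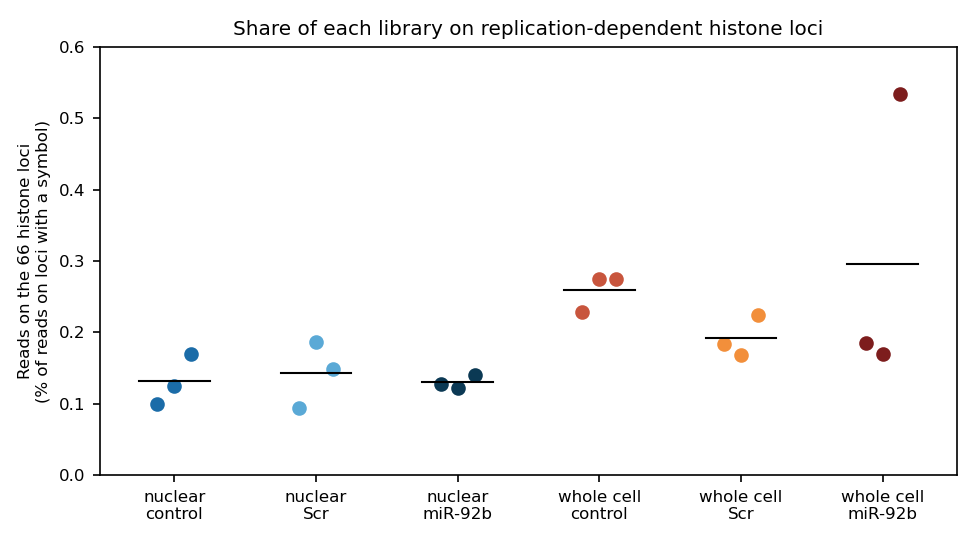
Share of reads on the 66 replication-dependent histone loci (y axis, percent of the reads on loci with a symbol) in the 3 samples of each of the 6 groups (x axis). Points are samples and lines are group means. The whole cell samples sit between 0.168% and 0.534%, with the third miR-92b sample far above the others, and the nuclear samples between 0.0934% and 0.187%.

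The compartments and the cell type were checked on other genes. The nuclear RNAs Malat1, Neat1 (a locus with Gm27702) and Kcnq1ot1 were higher in the nuclear samples by log2 fold changes of 0.98 to 1.08, and the 3 mitochondrial loci were lower by -5.60 to -4.76. Among markers of sympathetic neuroblastoma, Hand2 and Isl1 had mean normalized counts of 1078 and 741, and the Gata2 loci had 1549 and 638, all past the filter. None of the fibroblast (5 loci) or immune (4 loci) markers passed, and the glial genes Gfap and Mbp passed it at mean normalized counts of 41.5 and 86.6, without a change between the compartments past the threshold.

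The comparison of nuclear with whole cell samples, averaged over the 3 treatments, asked where the retained histone RNA was. Most histone loci were lower in the nuclear samples. By limma with Benjamini-Hochberg adjustment over all tested loci, 38 of the 55 were lower and 3 were higher, so 41 (74.5%) passed an adjusted p of 0.05, where 31.0% of all loci did (15.8% lower and 15.3% higher). The median log2 fold change of the 55 loci was -1.40, and that of all tested loci was 0.14. Without the third whole cell miR-92b sample, 37 of the 41 calls held and Hist1h2bn was called in addition, where 28.6% of all loci passed. The medians were then -1.17 and 0.098. Hist1h2bb, Hist1h4b, Hist1h1a and Hist1h2ap lost the call, with adjusted p-values of 0.0759, 0.0721, 0.0616 and 0.0579. In 5 loci the 9 nuclear and the 9 whole cell samples did not overlap, 4 with the nuclear samples lower and 1 with them higher, against 7.32% of all loci (4.40% lower and 2.91% higher). These genes have near-identical copies. A median of 49.6% of the 50-base stretches of a histone gene's transcripts also occurred in another gene, and 9 genes shared at least 90% of theirs, so how reads were split between those copies is uncertain, and 25 of the 66 loci were listed with the same coordinates as another member.

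**Figure D2:**
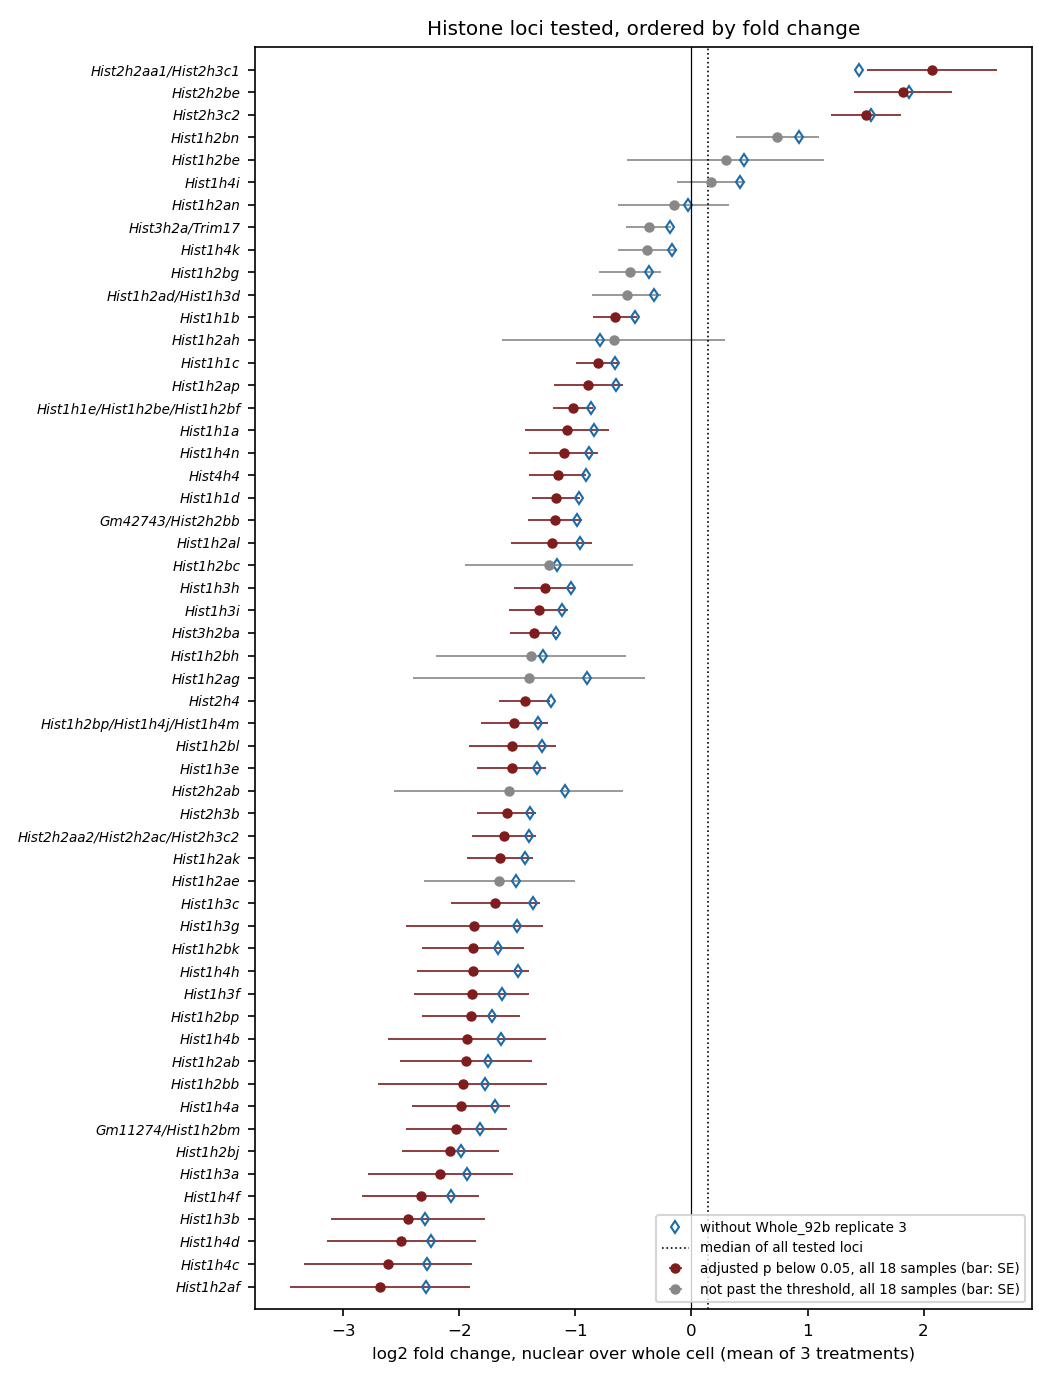
log2 fold change of nuclear over whole cell samples (x axis) for the 55 tested histone loci, ordered by its value (y axis), on the log2(normalized count + 1) scale. Filled points are the fit to all 18 samples with bars of 1 SE, red where the adjusted p was below 0.05, open diamonds the fit without the third whole cell miR-92b sample, and the dotted line the median of all tested loci. The 3 red points above 0 are Hist2h2be, Hist2h3c2 and Hist2h2aa1/Hist2h3c1, and 38 red points lie below 0.

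The linker histones, which bind the DNA between nucleosomes, were lower in the nuclear samples in all 4 loci that held H1 alone. Over all loci 15.8% were lower. Hist1h1b (chr13:21779883-21780625, minus strand) was the most counted of them. Hist1h1b had normalized counts of 322, 371 and 557 in the nuclear control samples, 318, 668 and 429 in nuclear Scr and 373, 448 and 426 in nuclear miR-92b, against 654, 867 and 705 in the whole cell control samples, 503, 545 and 499 in whole cell Scr and 475, 631 and 1592 in whole cell miR-92b. The nuclear values overlapped the whole cell ones through the second Scr and the third control nuclear sample. Its log2 fold change was -0.66 ± 0.19 (SE), adjusted p = 0.0103, and it was -0.49 without the third whole cell miR-92b sample. Hist1h1c had a median normalized count of 261 (range 187 to 387) over the 9 nuclear samples and 451 (292 to 1113) over the 9 whole cell samples (-0.81 ± 0.19 (SE), adjusted p = 0.00181). Hist1h1d had a median normalized count of 236 (range 188 to 416) over the 9 nuclear samples and 482 (378 to 1319.9) over the 9 whole cell samples (-1.17 ± 0.21 (SE), adjusted p = 1.53e-04). Hist1h1a was lower by the same test at -1.07 ± 0.36 (SE), adjusted p = 0.0256. In the locus that joins Hist1h1e with Hist1h2be and Hist1h2bf, the second most counted histone locus, the log2 fold change was -1.02 ± 0.17 (SE), adjusted p = 9.20e-05. The median over the 4 loci was -0.94, against -1.88 over 11 H4 loci, and the classes were not tested against each other. The testis gene Hist1h1t had a mean normalized count of 0.53 and was not tested.

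H2A pairs with H2B in the nucleosome core. Of 11 loci with H2A symbols alone, 5 were lower in the nuclear samples and none was higher, with a median log2 fold change of -1.40. Over all loci 15.8% were lower and 15.3% higher. The locus with the highest mean of all members joined Hist3h2a with Trim17, a ubiquitin ligase gene, and did not pass. Hist3h2a/Trim17 had normalized counts of 619.5, 883 and 1364 in the nuclear control samples, 654, 1303 and 1077 in nuclear Scr and 996, 852 and 952 in nuclear miR-92b, against 1278, 1425 and 1292 in the whole cell control samples, 915, 984 and 1219 in whole cell Scr and 944, 811 and 2792 in whole cell miR-92b. These samples overlapped widely, and the log2 fold change was -0.37 ± 0.19 (SE), adjusted p = 0.15. It passed without the second whole cell miR-92b sample (-0.48, adjusted p = 0.0495 by limma). Without the third whole cell miR-92b sample the value was -0.18 (adjusted p = 0.345 by limma). Hist1h2ak (chr13:21753435-21753827, minus strand) was lower. Hist1h2ak had normalized counts of 111, 105 and 38.0 in the nuclear control samples, 108, 130.1 and 169 in nuclear Scr and 191, 137 and 141 in nuclear miR-92b, against 316, 658 and 412 in the whole cell control samples, 129.8, 301 and 304 in whole cell Scr and 285, 348 and 1204 in whole cell miR-92b. All whole cell samples but the first Scr sample were above all nuclear ones, and the log2 fold change was -1.65 ± 0.28 (SE), adjusted p = 9.04e-05. Hist1h2af had the most negative log2 fold change of all members, -2.68 ± 0.77 (SE), adjusted p = 0.0105, at a median normalized count of 13.7 (range 0 to 32.2) in nuclear and 64.8 (14.3 to 279.8) in whole cell samples, so it rests on low counts. The other H2A loci called lower were Hist1h2ab (-1.94 ± 0.57), Hist1h2al (-1.20 ± 0.35) and Hist1h2ap (-0.89 ± 0.30), with adjusted p-values of 0.0119, 0.0107 and 0.0253. The call of Hist1h2ap was lost under 5 of 27 alternatives. Hist1h2al is annotated as a processed pseudogene (chr13:51202727-51203065, minus strand), far from the cluster. Hist1h2ae, Hist1h2ag, Hist1h2ah, Hist1h2an and Hist2h2ab did not pass, with log2 fold changes from -1.66 to -0.15. In the locus that joins Hist2h2aa2, Hist2h2ac and Hist2h3c2 the log2 fold change was -1.61 ± 0.28 (SE), adjusted p = 9.59e-05. In the locus that joins Hist1h2ad and Hist1h3d it was -0.56 ± 0.30 (SE), adjusted p = 0.159. Without the third whole cell miR-92b sample the latter was -0.32 (adjusted p = 0.366 by limma).

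Of 14 loci with H2B alone, 8 were lower and 1 was higher in the nuclear samples, at a median of -1.37. Over all loci 15.8% were lower and 15.3% higher. Hist3h2ba (chr11:58948920-58949533, plus strand), on chromosome 11, separated the compartments fully. Hist3h2ba had normalized counts of 192, 177 and 337 in the nuclear control samples, 201, 186 and 319 in nuclear Scr and 224, 238 and 265 in nuclear miR-92b, against 561, 699.5 and 752 in the whole cell control samples, 467, 505 and 478 in whole cell Scr and 420.2, 466 and 1463 in whole cell miR-92b. Every nuclear value was below every whole cell value. Its log2 fold change was -1.36 ± 0.20 (SE), adjusted p = 1.89e-05, and -1.17 without the third whole cell miR-92b sample. The Gm42743/Hist2h2bb locus had a median normalized count of 286 (range 160.0 to 513) over the 9 nuclear samples and 653 (406 to 1446) over the 9 whole cell samples (-1.18 ± 0.23 (SE), adjusted p = 4.21e-04). Hist1h2bl (-1.54 ± 0.38), Hist1h2bp (-1.90 ± 0.42), Hist1h2bj (-2.08 ± 0.42), Hist1h2bk (-1.88 ± 0.44), Hist1h2bb (-1.97 ± 0.73) and the Gm11274/Hist1h2bm locus (-2.02 ± 0.44) were also lower, with adjusted p-values from 5.35e-04 (Hist1h2bj) to 0.0425 (Hist1h2bb). The call of Hist1h2bb was lost under 20 of 27 alternatives, among them edgeR (adjusted p = 0.180) and DESeq2 (adjusted p = 0.115), and so is weak. Hist1h2bc, Hist1h2bg, Hist1h2bh, Hist1h2be (XLOC_036085) and Hist1h2bn did not pass. Hist1h2bn and Hist1h2be were among the 6 members whose log2 fold change was above 0, at 0.74 ± 0.36 and 0.29 ± 0.85. The locus that joins Hist1h2bp with the H4 genes Hist1h4j and Hist1h4m also separated the compartments. It had normalized counts of 89.5, 96.8 and 146 in the nuclear control samples, 65.5, 51.8 and 169 in nuclear Scr and 73.8, 63.0 and 102 in nuclear miR-92b, against 187, 259 and 327 in the whole cell control samples, 292, 175 and 323 in whole cell Scr and 175, 171 and 642 in whole cell miR-92b. The highest nuclear value, in the third Scr sample, was below the lowest whole cell one, and the log2 fold change was -1.53 ± 0.29 (SE), adjusted p = 2.79e-04.

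H3 carries many of the modified tail residues of chromatin. Of 10 loci with H3 genes alone, 9 were lower in the nuclear samples and 1, Hist2h3c2, was higher, against 15.8% and 15.3% of all loci. Hist2h3b (chr3:96268654-96269141, plus strand) did not overlap between the compartments. Hist2h3b had normalized counts of 123, 53.8 and 131 in the nuclear control samples, 114, 115 and 109.7 in nuclear Scr and 189.9, 86.9 and 140.2 in nuclear miR-92b, against 289, 348 and 454 in the whole cell control samples, 309, 204 and 328 in whole cell Scr and 219.6, 329.9 and 931 in whole cell miR-92b. The highest nuclear value was that of the first miR-92b sample. The log2 fold change was -1.59 ± 0.26 (SE), adjusted p = 4.97e-05. Hist1h3i had a median normalized count of 161 (range 146 to 331) over the 9 nuclear samples and 473 (158 to 1205) over the 9 whole cell samples (-1.31 ± 0.25 (SE), adjusted p = 3.62e-04). Hist1h3h had a median normalized count of 167 (range 117 to 320.0) over the 9 nuclear samples and 402 (184 to 1438) over the 9 whole cell samples (-1.27 ± 0.26 (SE), adjusted p = 7.55e-04). Hist1h3e had a median normalized count of 90.2 (range 77.7 to 287) over the 9 nuclear samples and 289 (129.6 to 1023) over the 9 whole cell samples (-1.55 ± 0.30 (SE), adjusted p = 3.32e-04). The remaining H3 loci were lower by log2 fold changes of -1.69 for Hist1h3c, -1.87 for Hist1h3g, -1.89 for Hist1h3f, -2.16 for Hist1h3a and -2.44 for Hist1h3b. Their adjusted p-values were between 0.0016 (Hist1h3c) and 0.0182 (Hist1h3g).

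H4 forms the core tetramer with H3. Of 11 loci with H4 genes alone, 9 were lower in the nuclear samples, none was higher, and the median log2 fold change was -1.88. Over all loci 15.8% were lower and 15.3% higher. Hist2h4 (chr3:96261682-96263311, minus strand), on chromosome 3, was the most counted of those called. Hist2h4 had normalized counts of 196, 251 and 247 in the nuclear control samples, 178, 195 and 324 in nuclear Scr and 227, 225 and 253 in nuclear miR-92b, against 617, 689 and 688 in the whole cell control samples, 393, 434 and 652 in whole cell Scr and 442, 499.8 and 1969 in whole cell miR-92b. The compartments did not overlap, and the third whole cell miR-92b sample was the highest. The log2 fold change was -1.44 ± 0.22 (SE), adjusted p = 2.34e-05, and -1.21 without that sample. Hist4h4 (chr6:136801553-136804415, minus strand) was lower as well. Hist4h4 had normalized counts of 156, 175 and 226 in the nuclear control samples, 146, 201 and 264 in nuclear Scr and 183, 92.6 and 163 in nuclear miR-92b, against 368, 501 and 500.5 in the whole cell control samples, 252, 251 and 346 in whole cell Scr and 292, 251 and 1227 in whole cell miR-92b. Only the third nuclear Scr sample reached into the whole cell range. The log2 fold change was -1.15 ± 0.25 (SE), adjusted p = 9.49e-04. Hist1h4c (-2.61 ± 0.73), Hist1h4d (-2.50 ± 0.64), Hist1h4f (-2.33 ± 0.51), Hist1h4a (-1.99 ± 0.42), Hist1h4b (-1.93 ± 0.68), Hist1h4h (-1.88 ± 0.48) and Hist1h4n (-1.10 ± 0.30) were lower, at adjusted p-values from 8.95e-04 (Hist1h4a) to 0.0334 (Hist1h4b). The call of Hist1h4b was lost under 10 of 27 alternatives, among them no filter (adjusted p = 0.0722 by limma), the FPKM scale (adjusted p = 0.0831 by limma) and edgeR (adjusted p = 0.0597). Hist1h4k and Hist1h4i did not pass. Hist1h4k had normalized counts of 231, 430.3 and 555 in the nuclear control samples, 264, 859 and 569 in nuclear Scr and 251, 386 and 517 in nuclear miR-92b, against 494, 502 and 870.0 in the whole cell control samples, 551, 461 and 448 in whole cell Scr and 355, 343 and 1284 in whole cell miR-92b. Both compartments spanned a like range, and the log2 fold change was -0.38 ± 0.25 (SE), adjusted p = 0.265. Without the third whole cell miR-92b sample it was -0.17 (adjusted p = 0.577 by limma).

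The 3 loci that were higher in the nuclear samples all lay in the chromosome 3 cluster, next to Hist2h4, Hist2h3b and other loci that were lower. Hist2h2be (chr3:96221119-96223738, plus strand) encodes an H2B. Hist2h2be had normalized counts of 116, 233 and 176 in the nuclear control samples, 158, 148 and 136 in nuclear Scr and 163, 223 and 237 in nuclear miR-92b, against 40.0, 134 and 39.0 in the whole cell control samples, 67.5, 26.3 and 103 in whole cell Scr and 108, 7.14 and 40.2 in whole cell miR-92b. The only overlap was between the first nuclear control sample and the second whole cell control sample. The log2 fold change was 1.82 ± 0.42 (SE), adjusted p = 0.00193, and 1.87 without the third whole cell miR-92b sample. The Hist2h3c2 locus (XLOC_101201) had normalized counts of 198, 698 and 1006 in the nuclear control samples, 199.6, 634 and 566 in nuclear Scr and 295, 456 and 658 in nuclear miR-92b, against 213, 165 and 242 in the whole cell control samples, 113, 134 and 289 in whole cell Scr and 191, 67.1 and 149 in whole cell miR-92b. Here the first nuclear sample of the control and Scr groups lay within the whole cell range. The log2 fold change was 1.51 ± 0.30 (SE), adjusted p = 5.04e-04. The locus that joins Hist2h2aa1 and Hist2h3c1 had normalized counts of 101, 196 and 277 in the nuclear control samples, 94.5, 171 and 353 in nuclear Scr and 142, 189.6 and 222 in nuclear miR-92b, against 69.4, 28.5 and 91.2 in the whole cell control samples, 58.7, 62.8 and 59.7 in whole cell Scr and 83.7, 78.5 and 0.637 in whole cell miR-92b. No nuclear value fell to the highest whole cell one, and the third whole cell miR-92b sample, the highest for most other members, was the lowest here. The log2 fold change was 2.07 ± 0.56 (SE), adjusted p = 0.00675, and 1.44 (adjusted p = 9.68e-04) without that sample. Hist2h2aa1 and Hist2h3c1 share 89.4% and 100% of their 50-base stretches with other genes, and Hist2h3c2 63.5%, while Hist2h2be shares 0%. On the FPKM scale, where a value is divided by transcript length, Hist2h2be remained higher (log2 fold change 2.15, limma adjusted p = 0.00724), and the other loci did not pass (1.13, adjusted p = 0.0671 and 1.68, adjusted p = 0.0536).

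**Figure D3:**
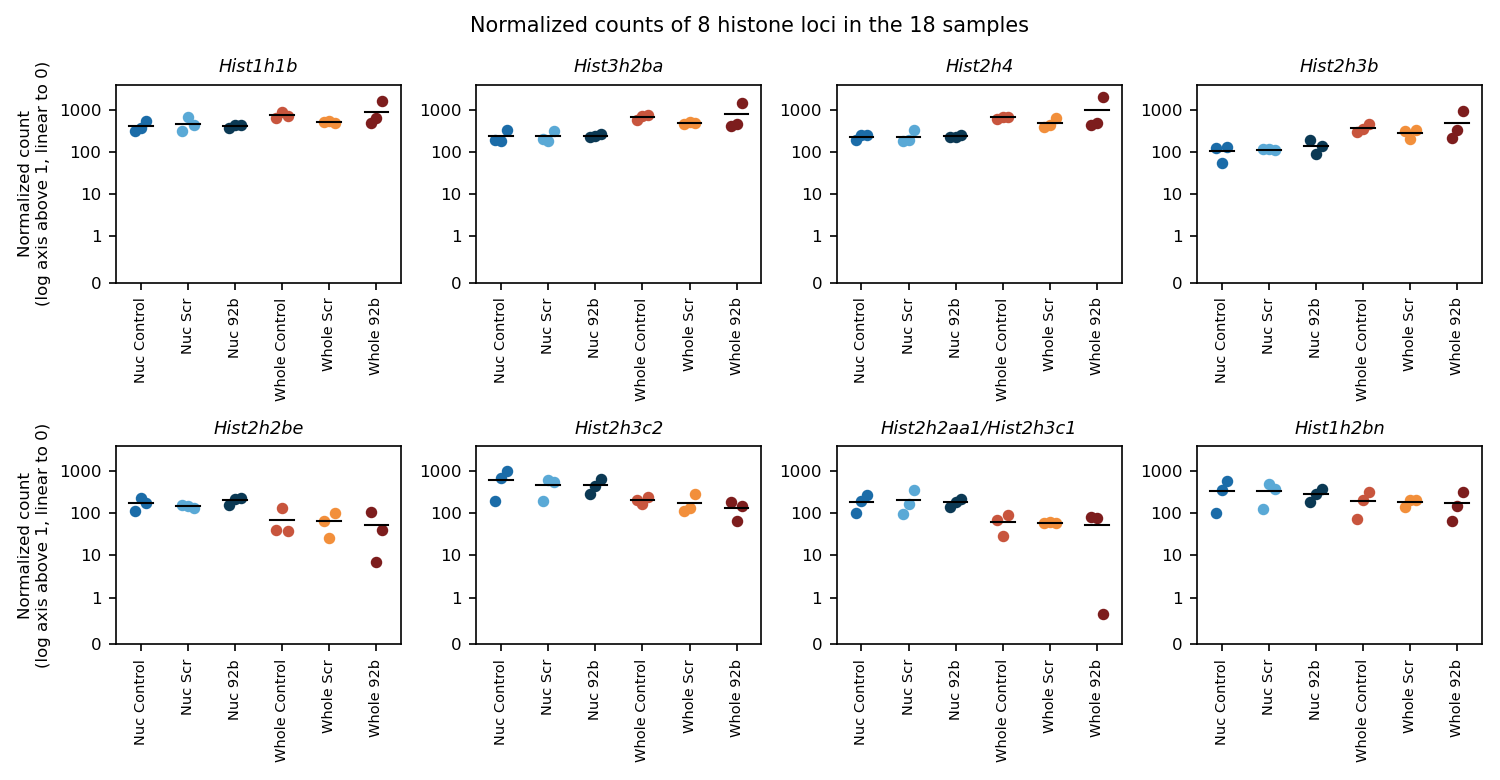
Normalized counts (y axis, logarithmic above 1 and linear from 0 to 1) of 8 histone loci in the 6 groups (x axis). Points are the 3 samples of a group and lines their mean. In the upper panels the nuclear samples are the lower ones, without overlap for Hist3h2ba, Hist2h4 and Hist2h3b, and in the first 3 lower panels they are mostly the higher ones.

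The 2 tables of a locus, normalized count and FPKM, together give the transcript length by which the authors' software divided. This implied length was scaled on 414 loci with a single annotated transcript of at least 1000 nt, over which it scattered by 0.94 (SD of log2), and, since such software corrects length for the size of the fragments, it falls short of the true length in short transcripts. The median implied length was under 500 nt in 38 of the tested histone loci and 29 of these were lower in the nuclear samples and none was higher (median log2 fold change -1.63). From 500 to 2000 nt, 8 of 14 loci were lower and 1 was higher (median -0.91). At 2000 nt or more, Hist2h2be and Hist2h3c2 were higher and Hist2h4 was lower. Over all tested loci, 13.6% of 988 with an implied length under 500 nt were lower and 10.3% were higher, 17.8% of 5045 from 500 to 2000 nt were lower and 8.31% were higher, and 14.9% of 9546 at 2000 nt or more were lower and 19.4% were higher. The Hist2h3c2 locus had an implied length of 8231 nt in the nuclear samples and 8523 nt in the whole cell samples, where its longest annotated transcript has 1020 nt, so the length used for it was far longer than the annotated gene.

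In 29 histone loci every sample had at least 10 reads, and there the implied length was compared between the compartments, as a description with no test. In 24 of them the nuclear median was under 1.5 times the whole cell median. In these 24, 21 were lower in the nuclear samples and 1 was higher, at a median log2 fold change of -1.19. Over all tested loci 15.8% were lower and 15.3% higher. In the other 5 it was at least 1.5 times as long, where 7.28% of 8999 loci with as many reads were, and none of the 5 passed the test on normalized counts. Hist1h2bn had an implied length of 1735 nt (range 320.1 to 5778) in the nuclear samples and 200.4 nt (162 to 595) in the whole cell samples. Its annotated transcript has 381 nt, which the whole cell values do not exceed in the median. For Hist1h4k it was 785 nt (range 284 to 3011) in the nuclear samples and 284 nt (163 to 631) in the whole cell samples. For Hist1h2bg it was 703 nt (range 396 to 1531) in the nuclear samples and 384 nt (267 to 504) in the whole cell samples. The locus of Hist1h2ad and Hist1h3d had 613 nt (range 277 to 1200.4) in the nuclear samples and 324 nt (277 to 409.9) in the whole cell samples, and Hist1h2an had 492 nt (range 139 to 1414) in the nuclear samples and 243 nt (158 to 1464) in the whole cell samples. In none of the 29 loci were the compartments without overlap in implied length, and 2.49% of all such loci had longer and 1.98% shorter nuclear values without overlap. Hist1h2bn had a median FPKM of 22.5 in nuclear and 86.5 in whole cell samples, and on that scale it was lower in the nuclear samples (log2 fold change -1.86, limma adjusted p = 0.00353), where the count had given 0.74. Hist1h4k (-1.78, adjusted p = 0.0145), Hist1h2bg (-1.56, 0.00116) and the Hist1h2ad/Hist1h3d locus (-1.76, 0.00804) were also lower on the FPKM scale, where their normalized counts had not passed. The count of Hist1h2bg did pass without the second nuclear Scr sample (-0.75, adjusted p = 0.0143 by limma).

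**Figure D4:**
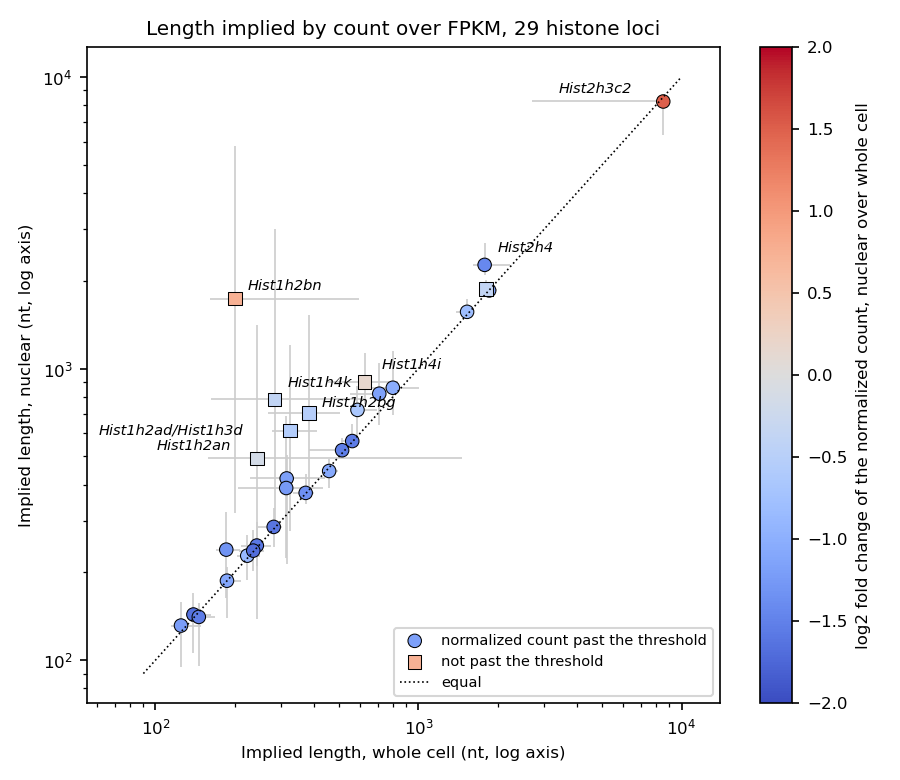
Transcript length implied by normalized count over FPKM in whole cell (x axis, nt) and nuclear samples (y axis, nt), both on log axes, for the 29 histone loci with at least 10 reads in every sample. Points are medians of 9 samples, grey bars run from the lowest to the highest sample, the colour is the log2 fold change of the count, and squares did not pass its test. Hist1h2bn, Hist1h4k, Hist1h2bg, Hist1h2an and Hist1h2ad/Hist1h3d lie above the line of equal length, and all are squares.

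The fold changes were also set beside the annotated 3′ end of each gene, for the 46 genes that had a tested locus of their own. Over all tested loci, 15.8% were lower and 15.3% higher in the nuclear samples. In 14 genes every annotated transcript ended within 100 nt of the stem-loop, as for Hist1h3b and Hist1h4f. Of these, 13 were lower in the nuclear samples and none was higher, at a median log2 fold change of -1.91 (range -2.44 to -0.89). In 11 genes a transcript ran 300 nt or more past the stem-loop, such as Hist4h4 with 2445 nt past it and Hist2h4 with 1257 nt, both with a poly(A) signal (AATAAA or ATTAAA, sense strand) in the last 50 nt. Of these, 8 were lower and 1 was higher, at a median of -1.38 (-2.61 to 1.51). In 5 further genes, with ends in between or a transcript without the stem-loop, 3 were lower. In 16 genes no annotated transcript held these letters. The annotation of most such genes stops within 50 nt of the stop codon, so this says nothing of the genome past that end. Of these 16, 9 were lower and 1, Hist2h2be with its 2620 nt transcript, was higher (median -1.22). The annotation did not say which form was sequenced: Hist1h4c has an annotated transcript of 820 nt with 454 nt past the stem-loop, and an implied length of 155 nt in whole cell samples. The genes ending near the stem-loop were also less counted, with a median normalized count of 82.5 against 293 for those running past it. These counts are not divided by length, so they do not compare levels. The part of the lower counts in the difference was not tested.

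**Figure D5:**
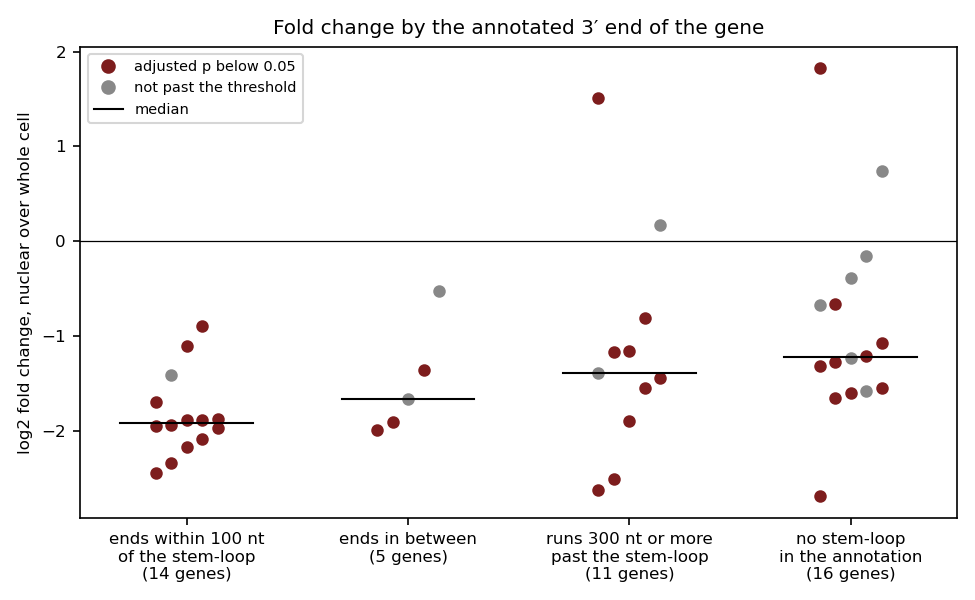
log2 fold change of nuclear over whole cell samples (y axis) for 46 histone genes with a tested locus of their own, by where their annotated transcripts end (x axis). Points are genes, red where the adjusted p was below 0.05, and lines are medians. The genes that end within 100 nt of the stem-loop lie between -2.44 and -0.89, and the spread is wider in the groups of 11 and 16 genes on the right.

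The same comparison was then made within each treatment. In untransfected control cells 17 of 55 histone loci were lower in the nuclear samples and none was higher by limma over all 6 groups, where 9.85% of all loci passed (6.91% lower and 2.94% higher), with a median log2 fold change of -1.55. With the control groups fitted alone 38 passed, where 19.9% of all loci did. Of the 38, 35 were lower, against 11.6% of all loci, and 3 were higher, against 8.34%. The 3 were Hist2h2be, Hist2h3c2 and Hist2h2aa1/Hist2h3c1. In edgeR and DESeq2 Hist2h3c2 was higher as well (log2 fold changes of 1.62 and 1.64, adjusted p-values of 0.0379 and 0.0140). Of the 17, Hist1h4f had the most negative value (-3.90 ± 0.87 (SE), adjusted p = 0.00501), and Hist1h2ak the smallest adjusted p (-2.51 ± 0.49 (SE), adjusted p = 0.00128). The joined loci Hist2h2aa2/Hist2h2ac/Hist2h3c2 (-2.25 ± 0.48 (SE), adjusted p = 0.00313) and Hist1h1e/Hist1h2be/Hist1h2bf (-1.46 ± 0.30 (SE), adjusted p = 0.00233) were among them. Without the second nuclear control sample or the second whole cell control sample 10 loci passed (6.09% and 5.55% of all loci), and without the third whole cell control sample 11 did (5.82%). Without the third whole cell miR-92b sample, which enters here through the shared estimate of the spread, 23 passed (22 lower and 1 higher), where 15.6% of all loci did.

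With Scr, 1 locus passed, Hist1h2bj (-2.88 ± 0.72 (SE), adjusted p = 0.0226), where 5.17% of all loci did (3.70% lower and 1.46% higher), and the median was -0.77. That call was lost with the Scr groups fitted alone, and without the first or the third whole cell Scr sample. Without the third whole cell miR-92b sample 7 loci passed, or 12.7%, near the 11.2% of all loci. Without the first, the second or the third nuclear Scr sample 2, 2 and 3 loci passed, where 6.75%, 3.21% and 3.67% of all loci did. The compartment markers moved with this. The nuclear RNAs had a median log2 fold change of 0.72 with Scr and none of the 3 passed, against 1.09 in control and 1.31 with miR-92b, where all 3 did. The mitochondrial loci had a median of -3.60 with Scr, against -5.79 in control and -5.27 with miR-92b. Their part in the histone values was not tested.

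With miR-92b, 17 loci were lower and 3 higher, where 13.3% of all loci passed (6.63% lower and 6.66% higher), and the median was -1.60. With the miR-92b groups fitted alone none passed, where 3.83% of all loci did. In that fit 29 were at an unadjusted p under 0.05, where 26.1% of all loci were. With no filter 10 passed (5.35% of all loci), and in DESeq2 32 did (16.5%). The 3 higher loci were again Hist2h2be (2.63 ± 0.73 (SE), adjusted p = 0.0182), Hist2h2aa1/Hist2h3c1 (3.04 ± 0.97 (SE), adjusted p = 0.0393) and Hist2h3c2 (1.84 ± 0.52 (SE), adjusted p = 0.0211). Without the third whole cell miR-92b sample, 3 histone loci passed with miR-92b in place of 20, a share (5.45%) below that of all loci (6.26%), and the median was -0.88. These were Hist2h2be (log2 fold change 2.79) and Hist2h3c2 (1.97), which were higher, and Hist2h4 (-0.999), which was lower. Without the first, the second or the third nuclear miR-92b sample, 12, 5 and 7 loci passed, where 7.79%, 7.21% and 7.30% of all loci did.

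That the counts of calls differ between treatments does not show that the compartments differed by treatment. The comparisons of Scr and of miR-92b with control in this respect were added after seeing the data. The difference itself passed for none of the 55 loci, whether for Scr against control, miR-92b against control or miR-92b against Scr. There edgeR and DESeq2 also called none. In that order 6, 0 and 1 were at an unadjusted p under 0.05 by limma, where 5.28%, 1.86% and 7.21% of all loci were. For Scr against control 37 of 55 values were above 0, with a median of 0.48 against -0.014 over all loci. In edgeR and DESeq2 43 were (medians of 0.44 and 0.46). The compartment markers also differed there, with medians of -0.32 (nuclear RNAs) and 2.15 (mitochondrial loci), and their part was not tested. Without the third whole cell miR-92b sample none passed either for the comparisons with miR-92b, but the values moved. For miR-92b against control, 49 of 55 were then above 0 in place of 32, and 6 were at an unadjusted p under 0.05, where 4.38% of all loci were. The median of that difference went from 0.11 to 0.69. The median was below 0 in edgeR (-0.14) and DESeq2 (-0.21) on all samples, so no direction is read from it. For miR-92b against Scr the median turned from -0.40 to 0.21, with 0 at an unadjusted p under 0.05, where 6.26% of all loci were.

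The pulldowns themselves were compared within each compartment, to ask whether histone RNA came down with the miR-92b mimic. In the nuclear samples no histone locus differed between miR-92b and Scr by limma, where 0.00% of all loci passed, and the median log2 fold change was 0.023. There 2 of 55 were at an unadjusted p under 0.05, where 4.41% of all loci were. In the whole cell samples none passed either, where 0.00642% of all loci did, and edgeR called none. By limma 5 were at an unadjusted p under 0.05, where 9.72% of all loci were. DESeq2 called 1, Hist1h2bh (adjusted p = 0.0375 by DESeq2 and 0.365 by limma), where it called 1.13% of all loci. This low locus had 45.9, 7.14 and 35.7 in the miR-92b and 0, 1.01 and 0 in the Scr samples. It passed the filter only through these miR-92b samples, so nothing is read from that call. Over the histone loci, 43 of 55 values were above 0, with a median of 0.49 against -0.014 over all loci. This direction rested on the third miR-92b sample. Without it 20 values were above 0 and 35 below, with a median of -0.10 against 0.024 over all loci. Of these values 3 were at an unadjusted p under 0.05, where 7.93% of all loci were, and none passed. Hist2h4 had 442, 499.8 and 1969 in the whole cell miR-92b samples and 393, 434 and 652 in the Scr ones, a log2 fold change of 0.65 ± 0.38 (SE), adjusted p = 0.589. Hist1h1b had 475, 631 and 1592 against 503, 545 and 499, a log2 fold change of 0.60 ± 0.33 (SE), adjusted p = 0.556. For Hist2h4 the first and second miR-92b samples lay within the Scr range, and for Hist1h1b they lay on either side of it. Against untransfected control, neither miR-92b nor Scr gave a call in nuclear or whole cell samples, in limma, edgeR and DESeq2 alike. By limma 1 (nuclear) and 0 (whole cell) were at an unadjusted p under 0.05 for miR-92b, where 0.321% and 4.69% of all loci were. For Scr 2 (nuclear) and 2 (whole cell) were, where 5.88% and 5.09% of all loci were. For miR-92b in whole cell samples 30 of 55 values were below 0, with a median of -0.015, but in edgeR and DESeq2 43 and 45 were above 0 (medians of 0.23 and 0.27), and without the second miR-92b sample 48 were (0.35). Without the third miR-92b sample 47 were below 0, with a median of -0.63 against -0.047 over all loci and no call. Of the 55, 8 were then at an unadjusted p under 0.05, where 8.09% of all loci were. The direction thus turned with the tool and with single samples. In whole cell samples 46 of 55 values were below 0 for Scr against control, with a median of -0.51 against -0.090 over all loci. With those groups fitted alone, 18 of 55 were at an unadjusted p under 0.05, where 7.59% of all loci were, and without the third whole cell Scr sample 8 were (6.40%). None passed the adjusted threshold in either. The Scr and miR-92b comparisons share their control samples.

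For comparison, the genes that encode replication-independent histone variants, whose mRNAs are mostly polyadenylated, were examined. Of 10 loci tested, 5 were lower in the nuclear samples and 1 was higher, with a median log2 fold change of -0.53, where 15.8% of all loci were lower and 15.3% higher, with a median of 0.14. H3f3b, which encodes H3.3, had a median normalized count of 2624 (range 2051 to 2885) in nuclear and 3458 (2308 to 6038) in whole cell samples (-0.48 ± 0.13 (SE), adjusted p = 0.00755). H2afy, which encodes macroH2A, was higher, at 1869.9 (range 1661 to 2153) in nuclear and 1231 (724 to 1481) in whole cell samples (0.67 ± 0.12 (SE), adjusted p = 1.57e-04). The locus of Gcat and H1f0, a linker histone of differentiated cells, was lower (-0.80 ± 0.12 (SE), adjusted p = 1.57e-05), as was H2afz, which encodes H2A.Z (-1.24 ± 0.18 (SE), adjusted p = 1.38e-05). The other lower loci, named after their values were seen, were H3f3a (-1.73 ± 0.25 (SE), adjusted p = 1.52e-05) and the locus of H1fx (-1.69 ± 0.39 (SE), adjusted p = 0.00208). This list and the replication-dependent loci were not tested against each other.

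The factors that form and degrade the histone mRNA 3′ end were tested at 17 loci. Of these, 1 was higher and 2 were lower in the nuclear samples, where 31.0% of all loci passed, at a median of -0.31 against 0.14 over all loci. Snrpd3, a core protein of small nuclear ribonucleoproteins, was the higher one (0.32 ± 0.12 (SE), adjusted p = 0.0495). Srrt (a locus with Mir7036), which links the cap complex to RNA processing, was lower (-0.41 ± 0.15 (SE), adjusted p = 0.0406). Lsm11, a subunit of the U7 particle that directs histone cleavage, was the other lower locus and is named after its value was seen (-0.61 ± 0.17 (SE), adjusted p = 0.00689). Cstf2, a cleavage stimulation factor, and Eri1, an exonuclease that trims the stem-loop end, had log2 fold changes of 0.14 ± 0.11 (SE), adjusted p = 0.347 and 0.01 ± 0.15 (SE), adjusted p = 0.971. Slbp, chosen for its role, had a median normalized count of 240.5 (range 145 to 371) in nuclear and 277 (193 to 435) in whole cell samples (-0.14 ± 0.19 (SE), adjusted p = 0.613). Genes of S phase and DNA replication, the phase in which histone mRNAs are made, were tested at 31 loci. Of these, 7 were lower in the nuclear samples and 1, Tyms, was higher (0.98 ± 0.12 (SE), adjusted p = 1.26e-06), with a median of -0.40, so the number called was near the share over all loci (31.0%). E2f1, an S phase transcription factor (a locus with Necab3), was lower (-0.36 ± 0.11 (SE), adjusted p = 0.0198), while Pcna, the replication clamp (a locus with Tmem230; 0.05 ± 0.14 (SE), adjusted p = 0.811), and the polymerase gene Pole (-0.07 ± 0.13 (SE), adjusted p = 0.698) did not pass.

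Levels of different histone genes can be set side by side only per length. By FPKM, the highest medians over the 9 whole cell samples were those of Hist1h3i (318, range 117 to 858), Hist1h2ak (288, 115 to 1143) and Hist1h4k (253, 80.3 to 579), which did not differ beyond their ranges. Hist2h2be stood far below them at 1.21, and at 6.51 in the nuclear samples. FPKM of transcripts this short depends on the fragment length by which the software corrects. The 11 loci that were not tested were Hist1h2ai, at a mean normalized count of 9.998 just under the filter, where Hist1h2bh at 11.3 was just inside, Hist3h2bb-ps, Hist1h2ac, Hist1h2be (XLOC_036086), Hist1h2br, Hist1h1t, Hist1h2bq, Hist1h2aj, Hist1h2ao, Hist1h2aa and Hist1h2ba. Hist1h2aa and Hist1h2ba had no read in any sample, which allows a normalized count of up to 0.786 to 4.75 per sample (3 reads).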

How the data were processed

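RNA from streptavidin pulldowns of N2A cells was sequenced after oligo-dT selection with a strand-keeping kit, 3 samples in each of 6 groups. Per the labels and the study's methods, the authors trimmed reads with Trimmomatic 0.30, aligned them to GRCm38 with TopHat2 and assembled and quantified loci with Cufflinks tools (aligner and Cufflinks versions: not given in the sources used here). Values came as normalized counts deposited for each locus (a signal, gene counts divided by a size factor for each sample) and FPKM values, in which the count is also divided by transcript length. Tables of the authors' own comparisons (fold changes and p-values) were not used.

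A normalized count was a whole multiple of the value of 1 read in all 635205 values above 0 (tolerance 0.02 reads), which gave the reads per sample, 3752991 to 22920037 on loci with a symbol. Named loci whose normalized count averaged 10 or more over all samples (15579) were tested with limma 3.58.1 (R 4.3.3) on log2(normalized count + 1), in 1 model of 6 groups with a trended spread and Benjamini-Hochberg adjustment, at an adjusted p of 0.05. Fold changes on this scale understate the change of low loci. The alternatives were edgeR 4.0.16 (quasi-likelihood) and DESeq2 1.42.0 on the recovered reads, FPKM with a pseudocount of 0.1, other pseudocounts and filters, another scaling, a replicate block, the compared groups alone, and leaving out each sample. The code was tested on simulated data. Intervals on shares are 95% Wilson intervals and, like the limits from 3 reads, cover counting error only.

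The histone loci and the gene lists were chosen with earlier results of these data known. Members with a mean of at least 10 are named with values, and of each other list up to 4 loci with the highest mean, unless said otherwise. Some marker genes are not reported here. Sequences come from GENCODE M21 transcripts and RefSeq, both on GRCm38.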

Additional observations from a re-analysis of the deposited data

How the results depend on the processing

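For nuclear against whole cell samples over the 3 treatments, the number of histone loci called was 38 to 42 when single samples were left out. In those fits 26.3% to 34.6% of all loci passed. Among 47 named loci, 35 of the 41 called kept the call under every one of up to 27 alternatives that gave an adjusted p, and none of the 41 changed direction. DESeq2 gave no adjusted p for Hist1h4a. Of loci not called, Hist1h4i had a log2 fold change of -0.42 on the FPKM scale and -0.072 to 0.42 with single samples left out (lowest without the second whole cell miR-92b sample), and Hist1h2bn had -1.86 on the FPKM scale. In untransfected control cells the count of 17 became 38 with the compared groups alone, where 19.9% of all loci passed. It became 10 to 23 with single samples left out, where 5.46% to 15.6% of all loci passed. For Scr the count of 1 became 2 with a pseudocount of 8, where 6.07% of all loci passed, and 2 in DESeq2, where 8.27% did. It became 0 with the compared groups alone, where 3.68% of all loci passed. With single samples left out it was 0 to 7, where 2.48% to 11.2% of all loci passed. For miR-92b the count of 20 became 10 with no filter, 32 in DESeq2 and 0 with the compared groups alone. Of all loci 5.35%, 16.5% and 3.83% passed there. With single samples left out it was 3 to 25, where 6.26% to 18.7% of all loci passed. DESeq2 called 1 locus for miR-92b against Scr in whole cell samples, where it called 1.13% of all loci. The cause of these shifts was not tested. With the replicate number as a block, the Scr count became 4 (7.27%), near the 5.59% of all loci. Under the same block Hist1h2bn passed for the mean over treatments (adjusted p = 0.0101 by limma). The block lost none of the 41 calls. Over 45 pairs of same-numbered samples the correlation of deviations was -0.044 to 0.11, above 0.1 in 1 pair, and 20 were the best match of their number. A correlation over all tested loci cannot exclude an effect of the number on some of them. The first nuclear samples had 10.8% (control), 10.4% (Scr) and 9.96% (miR-92b) of their reads on loci without a symbol. The other nuclear samples had 13.1% to 15.3%. Shallow samples limit the low loci, for which 3 reads are a normalized count of up to 4.75.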
